A study of Rattus norvegicus with 32 samples.

Results

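The 8 genes described here carry the cytokine signal that drives the acute phase response of the liver: the receptors Il6r, Il6st and Il1r1, the transcription factors Stat3, Cebpb and Cebpd, and the inhibitors Socs3 and Nfkbia. They were chosen by name, and each is represented by the brightest of its probe sets that carry 1 gene in the platform annotation, 8 of 13437 genes with such a probe set. Expression was measured on 32 Affymetrix arrays of liver RNA from male Wistar Kyoto rats, 10 weeks old and 250 to 300 g in weight, which breathed filtered air or ozone at 1 ppm for 6 h per day. Livers were taken directly after the exposure of day 1 (6 air arrays, 6 ozone arrays), directly after that of day 2 (5 of each) or 18 h after that of day 2 (5 of each), so each harvest time had its own air group. Nothing in the labels states that each array held a different animal, so p-values measure the spread between these samples, which may be technical.

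The acute phase response is the change in hepatocyte gene expression that follows inflammation or injury. Interleukin-6 binds its receptor Il6r, the complex recruits the shared signal transducer gp130 (Il6st), and the kinases bound to gp130 phosphorylate Stat3, which enters the nucleus and switches on genes of acute phase proteins and also Socs3, which shuts the receptor complex down. Interleukin-1 acts through Il1r1 and NF-kB, induces NF-kB's own inhibitor Nfkbia, and works together with C/EBP beta and delta (Cebpb and Cebpd) on many of the same liver genes.

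Promoter sequence was available in the RefSeq table (build GRCr8) for 7 of the 8 genes, as windows of 300 bases with 250 before and 50 after an annotated start. The 4 motifs named here were searched on both strands, and the stretch that held a match is printed together with the part of the Stat3 window that lies outside the annotated gene, because Stat3 is the member that differed most after ozone. The NF-kB motif (GGGA, any base, TT, any base, CC) was found in 1.11% of 33469 windows and, among the members, in that of Nfkbia alone, from 31 to 22 bases before the start, where capitals mark it (the motif reads on the opposite strand). The STAT motif TTCNNNGAA (8.87% of windows), the C/EBP motif TTGCNNAA (10.6%) and the cAMP response element TGACGTCA (1.83%) matched in none of the 7 windows, which says only that these letters are not in these windows. In 6 of the 7 the start used lies inside the span of the gene in the same table. The stretches are chr10:86363514-86363609 (minus strand, 96 bases just upstream of Stat3) and chr6:78597084-78597113 (minus strand, within the annotated span of Nfkbia).
Stat3: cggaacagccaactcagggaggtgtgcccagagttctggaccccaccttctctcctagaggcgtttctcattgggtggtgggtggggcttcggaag
Nfkbia: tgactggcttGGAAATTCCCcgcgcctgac

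Values are probe-set intensities on the authors' linear scale, and differences are of log2(intensity + 16), ozone minus air, with the standard error from limma and p-values adjusted by the Benjamini-Hochberg method over 10886 genes (threshold 0.05). Array medians lay between 147 and 161 units. The median of the nonspecific binding probes was 85.2 to 92.0 on 30 arrays, but 54.3 for replicate 2 of day 1 air and 66.1 for replicate 3 of day 1 ozone. Socs3, Il1r1 and Cebpd mostly lay below 205 units, close enough to that background that their folds may be understated, which was not tested. Of the 8 genes 7 passed the filter on dim probe sets (mean log2 level of 7.202); Il1r1, at 7.201, did not, and its differences come from the fit with no filter, while Socs3 lay just inside at 7.237. Across all genes, 7 arrays resembled another group more than their own. Among them, replicate 5 of day 2 air correlated at r = -0.53 with its own group and 0.60 with day 2 ozone, day 2 ozone replicate 5 had -0.25 and 0.66 with ozone at 18 h, 18 h air replicate 1 had 0.26 and 0.71 with ozone at 18 h, and 18 h air replicate 5 had 0.10 and 0.61 with day 1 air (Pearson across genes, which are not independent). These 4 were named for omission from an earlier look at these data. The other 3 (day 1 air replicate 5, day 2 air replicates 1 and 2) resembled an air group of another day, at 0.61 to 0.67, although day 2 air replicate 1 had 0 with its own group. A fit without all 7, which leaves 2 day 2 air arrays, was added after seeing the data. Such arrays lie away from their own group, so omitting them can by itself widen the gap between groups.

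**Figure D1:**
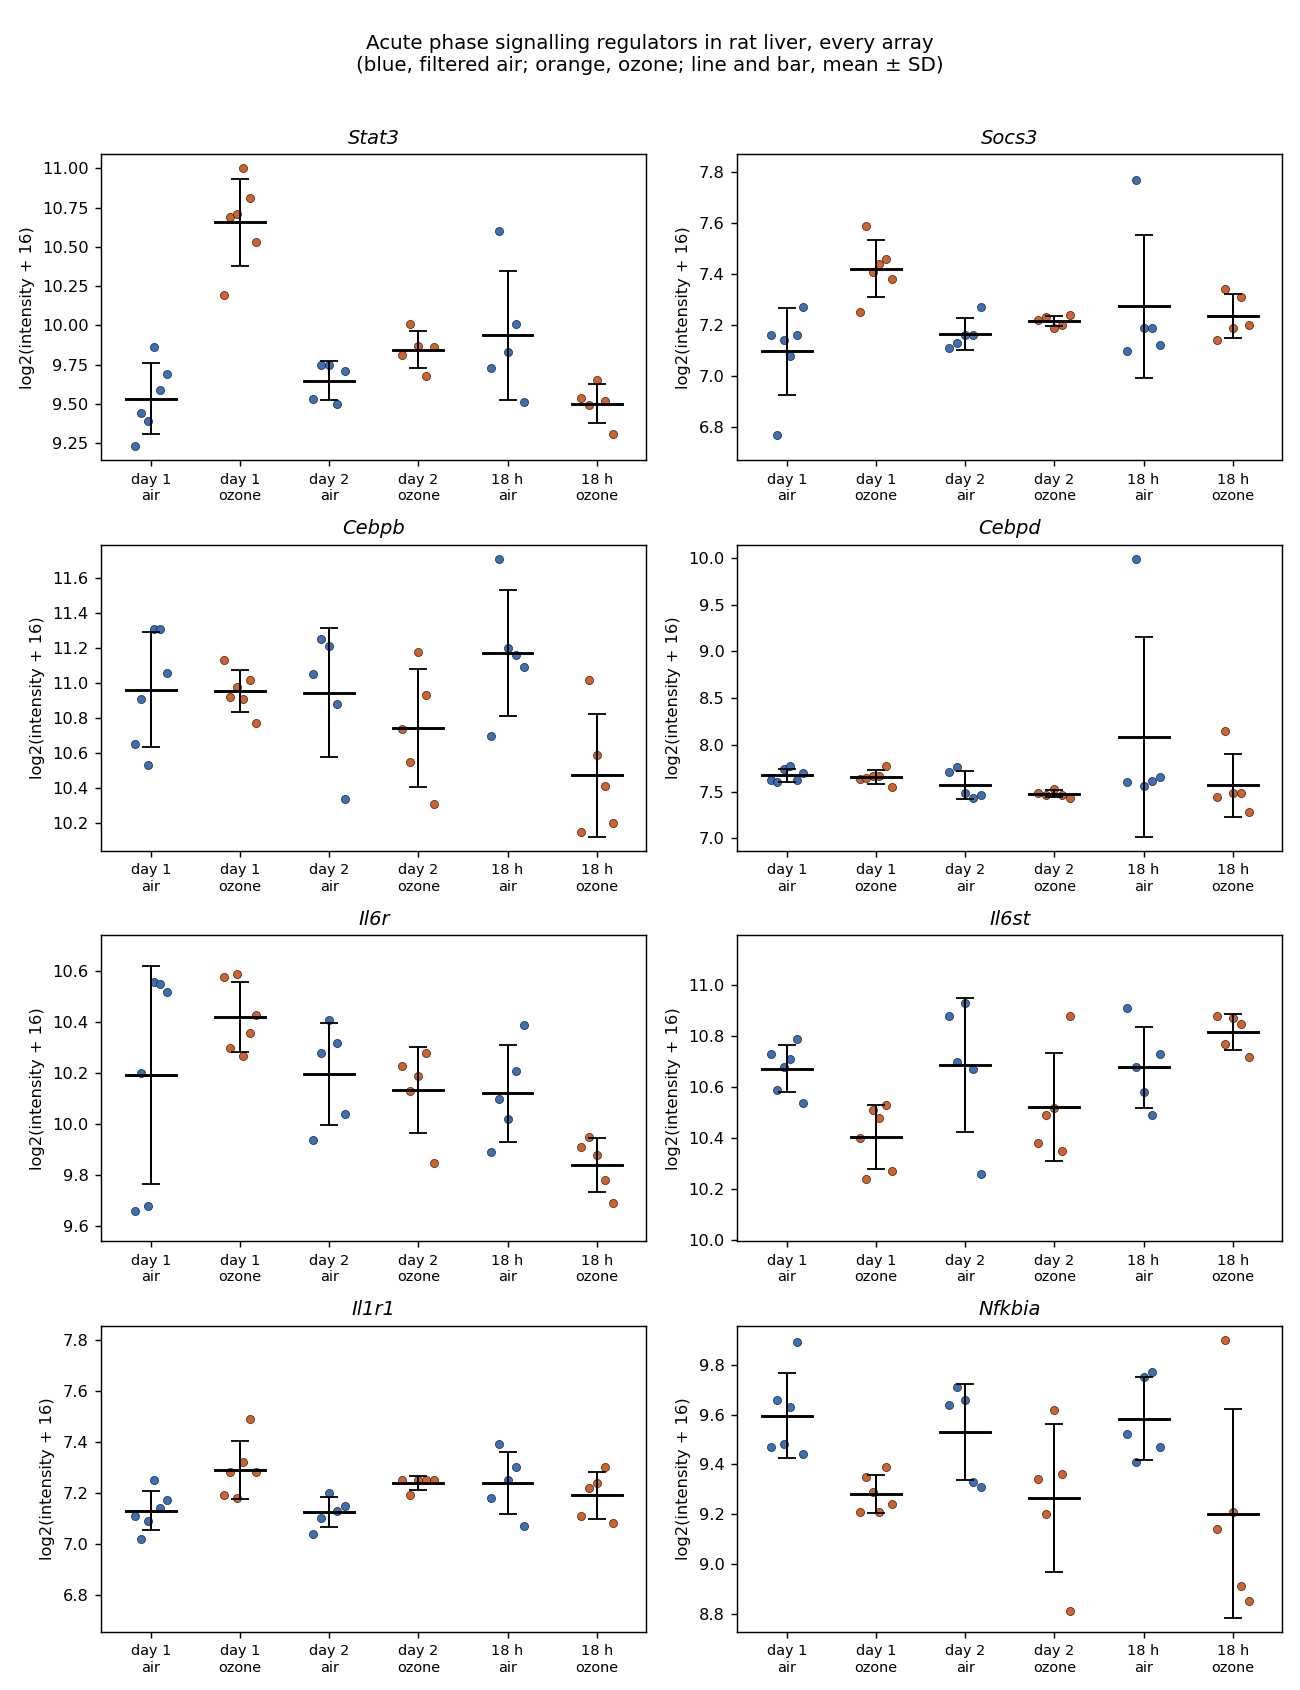
Level of each of the 8 genes on all 32 arrays, as log2(intensity + 16), by exposure (blue, filtered air; orange, ozone) and harvest time; each point is an array, and the line and bar are the group mean and SD. On day 1 every Stat3 ozone array lies at 10.19 or above and every air array at 9.86 or below, and 1 air array at 18 h is the highest of its 5 for Stat3, Socs3, Cebpb and Cebpd.

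At the end of exposure on day 1, Stat3 rose about 2-fold, Socs3 rose slightly and Il6st fell slightly, while Cebpb and Cebpd were nearly the same in both groups. In all, 3 of the 7 tested members passed the threshold (42.9%), against a background of 31.4% of all genes tested at this time, 13.9% higher and 17.5% lower after ozone. So the count by itself is not far from the background. In whole liver, fewer cells of a type and less RNA per cell cannot be told apart. In size, the members' differences ran from -0.32 to 1.12, with a median size of 0.27 against 0.07 over all genes.

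Stat3, the transcription factor that gp130 activates, read 583 units at the lowest, 716 at the median and 914 at the highest of the 6 air arrays. After ozone the 6 arrays read 1150 at the lowest, 1647 at the median and 2025 at the highest. Every ozone array lay above every air array. The difference was 1.12 ± 0.13 on the log2 scale (SE, n = 6 and 6, 2.17-fold, limma adjusted p = 2.3e-07), which ranked 57 of 10886 by p and 48 by size. It passed in each setting tried. The second, dimmer Stat3 probe set rose by 0.90 ± 0.11 (limma adjusted p = 4.9e-07 over all probe sets tested singly).

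Socs3, the feedback inhibitor that Stat3 induces, read 93.4, 126 and 139 units in air (lowest, median, highest) and 136, 156 and 177 after ozone. The groups overlapped by a single pair of arrays: ozone replicate 1, at 136, lay below air replicate 6, at 139. The lowest value came from air replicate 2, one of the arrays of low nonspecific signal. Socs3 rose by 0.32 ± 0.08 (1.25-fold, limma adjusted p = 0.0022), and by 0.26 ± 0.08 (limma adjusted p = 0.016) without both arrays of low nonspecific signal.

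Il6st, the gp130 subunit that the whole interleukin-6 family shares, read 1473, 1643 and 1756 units in air and 1196, 1372 and 1465 after ozone. No ozone array reached the lowest air array. It fell by 0.27 on the log2 scale (SE 0.09, to 0.83 times the air level, limma adjusted p = 0.022), a call that was lost without air replicate 5 (-0.25, limma adjusted p = 0.050), ozone replicate 2 (-0.24, 0.059) or ozone replicate 6 (-0.24, 0.054). Il6st has 4 probe sets past the filter. Over all probe sets tested singly, limma gave -0.27 (adjusted p = 0.023), -0.01 ± 0.07 (0.90), -0.39 ± 0.13 (0.025) and -0.36 ± 0.11 (0.010), in order of brightness. So 3 of the 4 fell and the second brightest gave no difference past its error.

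Il6r, the interleukin-6 binding chain, read 793, 1305 and 1492 units in air and 1218, 1332 and 1524 after ozone. Air replicates 1 and 3, at 793 and 803, lay well below the other 4 air arrays, and the groups overlapped. Its difference was 0.23 ± 0.13 (limma adjusted p = 0.19) and did not pass. Il1r1, the signalling receptor of interleukin-1, read 114, 123 and 136 in air and 129, 139 and 163 after ozone, with overlapping groups. In the fit with no filter its difference was 0.16 ± 0.05 (limma adjusted p = 0.013), a rise of 1.12-fold on a dim probe set.

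Nfkbia, the IkB alpha protein that holds NF-kB in the cytoplasm, read 679, 738 and 933 units in air and 574, 599 and 653 after ozone. The groups did not overlap, yet its difference of -0.32 ± 0.13 missed the threshold (limma adjusted p = 0.061). It passed in a fit of the day 1 arrays alone (SE 0.07, adjusted p = 0.0028), without day 2 ozone replicate 5 (0.042), without 18 h ozone replicate 2 (0.017) and without the 4 arrays named above (0.043), each by limma with the difference at -0.32, but not without all 7 (-0.26, 0.12).

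Cebpb, a C/EBP factor made in large amounts in hepatocytes, read 1467, 2012 and 2523 units in air and 1726, 1966 and 2227 after ozone, so that the ozone arrays lay inside the range of air. The difference was 0.00 ± 0.17 (limma adjusted p = 0.99). Cebpd, the C/EBP factor that is low in resting liver and strongly induced by interleukin-6 and interleukin-1, read 178, 186 and 202 in air and 171, 186 and 204 after ozone. Its difference was -0.01 ± 0.24 (limma adjusted p = 0.97). Its second probe set gave 0.04 ± 0.17. Without air replicate 2 of the 18 h harvest, the array with by far the highest Cebpd level, the SE of the first was 0.08.

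**Figure D2:**
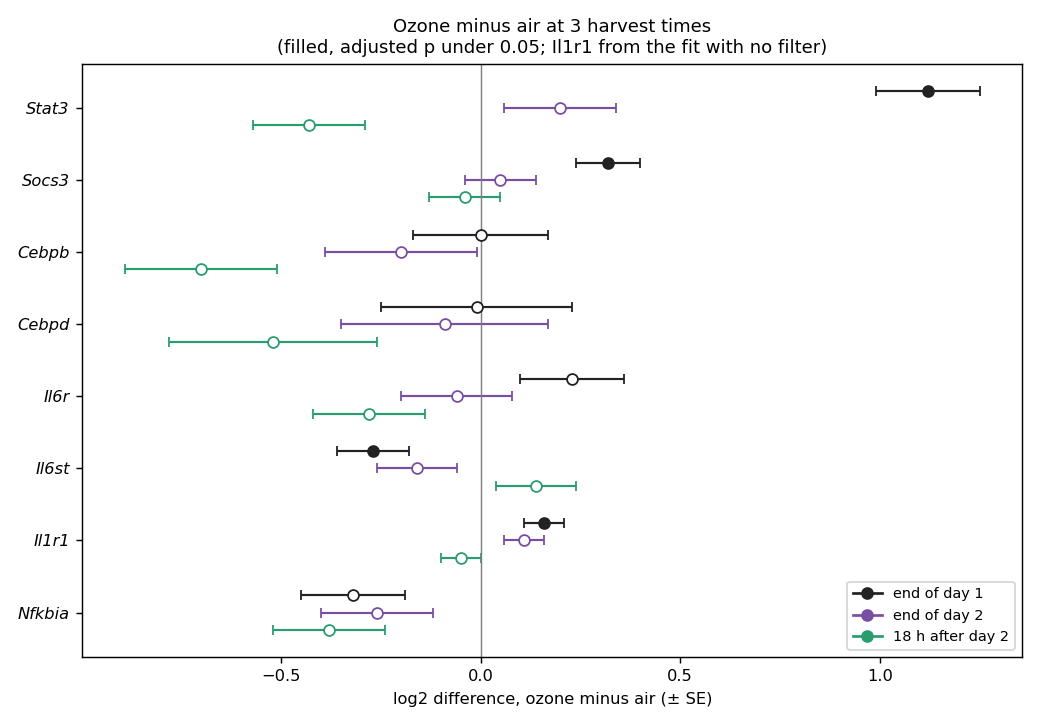
Log2 difference, ozone minus air, for each gene at the 3 harvest times, with the SE from limma as bars; filled points passed the threshold and open points did not. Stat3 goes from 1.12 on day 1 to 0.20 on day 2 and -0.43 at 18 h; Il1r1 comes from the fit with no filter.

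At the end of exposure on day 2, 0 of the 7 tested members passed in limma, and 0 had an unadjusted p under 0.05, against a background of 0.753% of all genes (0.496% higher and 0.257% lower). Stat3 read 724, 842, 843, 709.9 and 819 units in the 5 air arrays and 884, 1012, 918, 804 and 915 in the 5 ozone arrays. Only ozone replicate 4 lay within the air range, and the difference was 0.20 ± 0.14 (limma adjusted p = 0.62). Socs3 read 122, 124, 127, 127 and 138 in air and 133, 135, 129.9, 131 and 135 after ozone, with all ozone arrays inside the air range and a difference of 0.05 ± 0.09.

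Il6st read 1874, 1646, 1928, 1615 and 1213 units in air and 1313, 1422, 1455, 1293 and 1868 after ozone on day 2. In each group replicate 5 stood on the side of the other group: the lowest air array and the highest ozone array were both replicate 5, the arrays that resembled another group over all genes. The difference was -0.16 ± 0.10 with all arrays (limma adjusted p = 0.52), -0.27 without air replicate 5 (0.049), -0.36 ± 0.07 without the 4 named arrays (0.00064) and -0.36 ± 0.09 without all 7 (0.0074). With arrays weighted by their fit to their group it was -0.37 (limma adjusted p = 0.0011). With each probe set tested singly on all arrays, none of the 4 passed. Limma gave -0.16 (adjusted p = 0.55), -0.06 ± 0.07 (0.86), -0.30 ± 0.15 (0.39) and -0.26 ± 0.12 (0.34), in order of brightness.

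Nfkbia read 780.3, 819.9, 791, 628 and 619 units in air and 631, 574, 768, 641 and 433 after ozone on day 2. The groups overlapped, with a difference of -0.26 ± 0.14 (limma adjusted p = 0.43). Cebpb read 2110.4, 2416, 2347, 1871 and 1282 in air against 1700.1, 1483, 2297, 1934 and 1256 after ozone, a difference of -0.20 ± 0.19 with replicate 5 the lowest array of both groups. Cebpd, at 156 to 201 in air and 156 to 169 after ozone, and Il6r, at 966 to 1341 and 908 to 1225, differed by -0.09 ± 0.26 and -0.06 ± 0.14. For Il1r1 the air arrays read 115 to 131 and the ozone arrays 130.3 to 136, which overlapped by 1 array, with a difference of 0.11 ± 0.05 (limma adjusted p = 0.41 with no filter).

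At 18 h after the second exposure 0 of the 7 tested members passed in limma, against a background of 1.37% of all genes (1% higher and 0.367% lower), and 3 of them (Cebpb, Stat3 and Nfkbia) had an unadjusted p under 0.05. The members' median difference was -0.38, against 0.01 over all genes. Of these values, those of Stat3, Socs3, Cebpb and Cebpd moved with air replicate 2.

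Cebpb read 1648, 3324, 2334, 2275 and 2161 units in air at 18 h and 1119, 2059, 1529, 1344 and 1163 after ozone. Air replicate 2 was the highest of all 32 arrays, ozone replicate 2 lay within the air range, and the other 4 ozone arrays lay below every air array. The difference was -0.70 ± 0.19 (1.62-fold lower, limma adjusted p = 0.054) and -0.56 ± 0.19 without air replicate 2 (0.17). It passed without 18 h air replicate 1 (-0.81, 0.012), 18 h ozone replicate 2 (-0.83, 0.029), day 2 air replicate 5 (0.027), day 2 ozone replicate 3 (0.049) or day 2 ozone replicate 5 (0.038). It also passed after quantile normalization (-0.71, 0.034) and without the 4 named arrays (-0.88 ± 0.18, 0.0030) or all 7 (-0.88, 0.0036), all by limma.

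Stat3 read 836, 1537, 894, 1012 and 711 units in air at 18 h and 729.7, 702, 786, 717 and 621 after ozone. Air replicate 2 stood far above the rest, and the groups overlapped. The difference of -0.43 ± 0.14 did not pass (limma adjusted p = 0.13), and it was -0.27 ± 0.12 without air replicate 2 (0.41). Without the 4 named arrays, which leaves air replicates 2, 3 and 4, it was -0.64 ± 0.15 (limma adjusted p = 0.010), and without all 7 it was -0.64 ± 0.16 (0.016). The second Stat3 probe set differed less, by -0.19 ± 0.12 with all arrays (limma adjusted p = 0.58 over all probe sets tested singly).

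Cebpd read 178, 998, 173, 179.8 and 187 units in air at 18 h and 158, 269, 164, 163 and 139.5 after ozone. Replicate 2 was the highest array in both groups, by far in air. The difference was -0.52 ± 0.26 (limma adjusted p = 0.41) with all arrays and -0.04 ± 0.10 without air replicate 2 (0.95), so that the difference was nearly absent without 1 array. Without the 4 named arrays, which keeps air replicate 2 among 3, it was -0.82 ± 0.30 (0.12). Socs3 read 121, 203, 129.9, 129.9 and 123 in air and 125, 147, 130, 142 and 131 after ozone. Its difference was -0.04 ± 0.09 with all arrays and 0.09 ± 0.07 without air replicate 2, neither past the threshold (limma adjusted p = 0.92 and 0.72).

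Nfkbia read 717, 664, 845, 857 and 691 units in air at 18 h and 548, 941, 574, 467 and 447 after ozone. Ozone replicate 2 was the highest of the 10 arrays, and the other 4 ozone arrays lay below all 5 air arrays. The difference was -0.38 ± 0.14 (limma adjusted p = 0.20) and -0.55 ± 0.12 without ozone replicate 2 (0.020). Il6r read 936, 1079, 1026, 1171 and 1323 in air and 946, 970, 929, 861 and 807 after ozone, with a difference of -0.28 ± 0.14 (limma adjusted p = 0.40). Il6st read 1904, 1625, 1513, 1425 and 1677 against 1868, 1731, 1854, 1827 and 1674, a difference of 0.14 ± 0.10 with all arrays and 0.23 ± 0.07 without the 4 named ones (limma adjusted p = 0.059), and Il1r1 read 118 to 151 against 119 to 142, a difference of -0.05 ± 0.05.

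Whether the ozone effect changed with time was tested as a difference between ozone effects. From day 1 to day 2 the effect on Stat3 became smaller by 0.92 ± 0.19 on the log2 scale (limma adjusted p = 0.0058), the 1 member of 7 that passed against a background of 5.54% (3.4% higher and 2.14% lower). The Socs3 effect changed by -0.27 ± 0.12 (limma adjusted p = 0.18), and by -0.27 with an adjusted p of 0.049 without 18 h air replicate 2. From day 2 to 18 h 0 of 7 passed in limma, with 2 at an unadjusted p under 0.05 and a background of 0.00919%; Stat3 gave -0.63 and Il6st 0.31. Both passed without the 4 named arrays, at -0.85 (limma adjusted p = 0.0079) and 0.59 (0.00021), and without all 7, at -0.86 (0.033) and 0.60 (0.0013). Over all genes 1160 passed without the 4 arrays and 790 without the 7, against 1 with all arrays. Such omission can by itself widen the gap between groups. The second Stat3 probe set gave -0.30 ± 0.17 with all arrays (limma adjusted p = 0.68 over all probe sets tested singly).

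From day 1 to 18 h the ozone effect changed for 4 of 7 members, against a background of 22.1% (13.4% higher and 8.62% lower). It fell by 1.55 ± 0.19 for Stat3 (limma adjusted p = 6.9e-06), by 0.36 ± 0.12 for Socs3 (0.027) and by 0.69 ± 0.25 for Cebpb (0.048), and it rose by 0.41 ± 0.13 for Il6st (0.026). Without 18 h air replicate 2 these were -1.39, -0.24 (0.048), -0.56 (0.12) and 0.41 (0.036). The Stat3 change passed in each setting tried. That of Cebpb was lost in 22 of the 32 fits that left out 1 array, with adjusted p between 0.051 and 0.12. That of Socs3 was lost without day 1 air replicate 2 (0.051), day 1 ozone replicate 2 (0.050) or the arrays of low nonspecific binding (-0.30, 0.063), and in a fit of these groups alone (-0.36, 0.059), and that of Il6st without 18 h air replicate 4 (0.059). Il6r gave -0.51 ± 0.19 (limma adjusted p = 0.054) and passed in 6 of the fits that left out 1 array, at 0.026 to 0.049, and without all 7 arrays nearer another group (-0.57, 0.031). It passed too after quantile normalization (-0.57, 0.017), with the filter at the 50th percentile (-0.51, 0.044) and with array weights (-0.58, 0.023), all by limma. Il1r1 gave -0.21 ± 0.07 with no filter (0.043). All 4 Il6st probe sets passed here with the same sign, at 0.41, 0.27, 0.66 and 0.46 (adjusted p = 0.027, 0.044, 0.016 and 0.041 over all probe sets), and the second Stat3 probe set gave -1.09 ± 0.16 (3.5e-05).

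**Figure D3:**
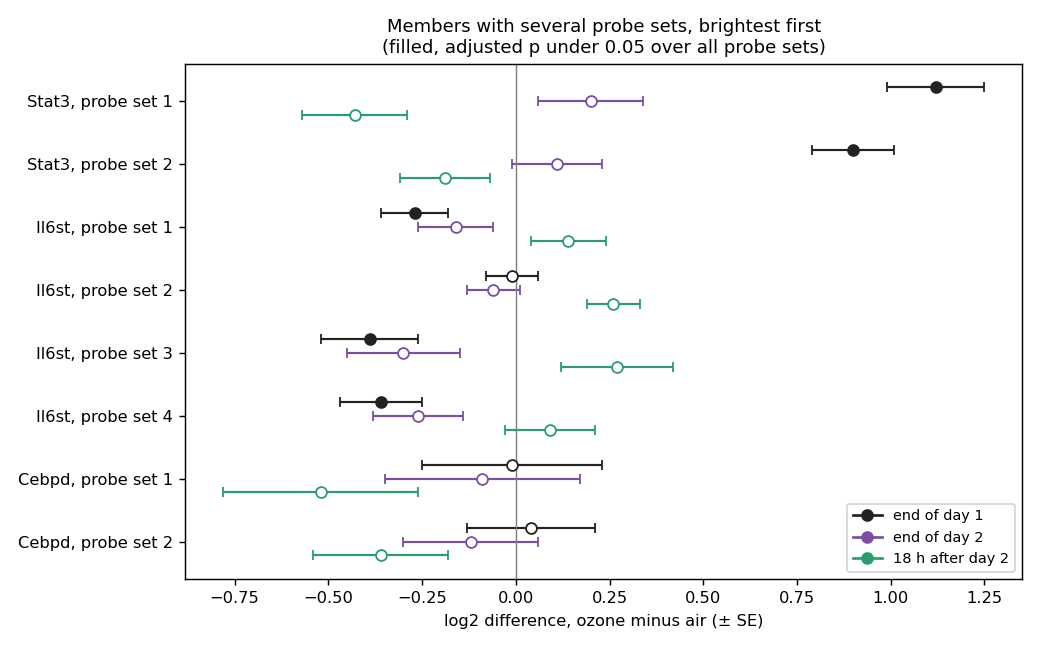
Log2 difference, ozone minus air, with the SE from limma, for each probe set past the filter of the members that have several such probe sets, brightest first; filled points passed the threshold over all probe sets. Both Stat3 probe sets rose on day 1 (1.12 and 0.90), and 3 of 4 Il6st probe sets fell.

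The 3 air groups give the spread of the members between harvests in the absence of ozone. Between the air groups of day 1 and day 2, 0 of 7 passed in limma (background 0.00919%), with differences from -0.10 to 0.11. Between air on day 2 and air at 18 h 0 of 7 passed (background 0.129%, of which 0.0919% higher and 0.0367% lower), with differences from -0.07 to 0.51, the largest that of Cebpd, which carries the 998-unit array. In both, 0 had an unadjusted p under 0.05. Ordered by mean level over the 6 groups, Stat3 ran from 10.65 ± 0.28 (SD of log2 levels) in day 1 ozone through 9.94 ± 0.41 in 18 h air, 9.85 ± 0.12 in day 2 ozone, 9.65 ± 0.12 in day 2 air and 9.53 ± 0.23 in day 1 air to 9.50 ± 0.12 in 18 h ozone. For each of the 8 members, neighbouring groups in that order overlapped at every step. For Stat3 the first step overlapped only through 18 h air replicate 2, at 10.6. The lowest day 1 ozone array lay at 10.19 and the next highest 18 h air array at 10.01. The group means of a member spanned 1.15 on the log2 scale for Stat3, 0.70 for Cebpb, 0.61 for Cebpd, 0.58 for Il6r and 0.41 or less for the other 4.

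The 6 lists of genes around the members were counted in the same way, with the members themselves left out. Together they held 68 tested genes, of which 15 rose and 13 fell on day 1, 41.2% against the background of 31.4%. Of 6 genes of the interleukin-6 family, 1 rose, the ciliary neurotrophic factor receptor Cntfr, by 0.09 ± 0.03. Of 11 JAK-STAT transducers 0 rose and 4 fell, among them the gp130-associated kinases Tyk2 (-0.27 ± 0.06, limma adjusted p = 0.00028) and Jak1 (-0.21 ± 0.04, 0.00043). Of 14 JAK-STAT inhibitors 3 rose and 4 fell, among them Socs2, a feedback inhibitor of growth hormone signalling (-0.95 ± 0.18, 0.00010), and Ptpn6, the phosphatase SHP-1 (-0.26 ± 0.06, 0.00079). Thus Socs2 fell where Socs3 rose.

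Of 15 genes of interleukin-1 signalling 6 rose and 1 fell on day 1. Tollip (0.38 ± 0.06, limma adjusted p = 7.4e-06) and Irak3 (0.33 ± 0.06, 3e-05), both negative regulators of the pathway, had the smallest p. Also higher were Myd88 (0.53 ± 0.10, limma adjusted p = 0.0001), Map3k7 (0.24 ± 0.04, 0.00013), Il1rn (0.19 ± 0.05, 0.0022) and Irak2 (0.16 ± 0.05, 0.021). The rise was thus not one of negative regulators alone. Of 12 genes of NF-kB and its inhibitors 4 rose and 2 fell, led by Nfkbib, IkB beta (0.39 ± 0.05, 3.7e-06), and Chuk, the kinase IKK alpha (0.44 ± 0.07, 3.3e-05). Nfkbib thus rose while Nfkbia read lower. Of 10 C/EBP and liver transcription factors 1 rose and 2 fell, with Dbp, a circadian factor, at -1.10 ± 0.23 (0.00052) and Foxa1 at 0.27 ± 0.06 (0.00056). Beside these counts, 13.9% of all genes tested rose and 17.5% fell on day 1, and the C/EBP list lies near those shares.

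Among 22 secreted acute phase proteins, a list that also holds Alb, Ttr and Ahsg, 1 rose and 2 fell on day 1. The other 19 did not pass, against a background of 31.4% of all genes that did, and the median difference was 0.01. Serpina3n, a serine protease inhibitor, rose by 0.34 ± 0.08 (limma adjusted p = 0.0015). Cp, ceruloplasmin, differed by -0.16 (SE 0.05, 0.010) and Ahsg by -0.14 (SE 0.05, 0.031). Among 14 glucocorticoid-induced genes 3 rose and 3 fell, with Cdkn1a at 1.75 ± 0.18 (5.2e-08) and Fkbp5 at 1.17 ± 0.17 (4.1e-06). On day 2, 0 genes of these 8 lists passed in limma, and 25 of 104 (24%) had an unadjusted p under 0.05, against 13.8% of all genes tested. At 18 h 5 of 104 passed in limma, against a background of 1.37% of all genes. An unadjusted p under 0.05 was found for 22 of them (21.2%), against 12.7% of all genes tested. Pias2 (0.13 ± 0.03, limma adjusted p = 0.034), Foxa2 (0.63 ± 0.16, 0.037) and Apcs, serum amyloid P (0.25 ± 0.04, 0.0035), were higher after ozone at 18 h, and Klf9 (-0.51 ± 0.12, 0.023) and Errfi1 (-0.36 ± 0.09, 0.045) lower.

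**Figure D4:**
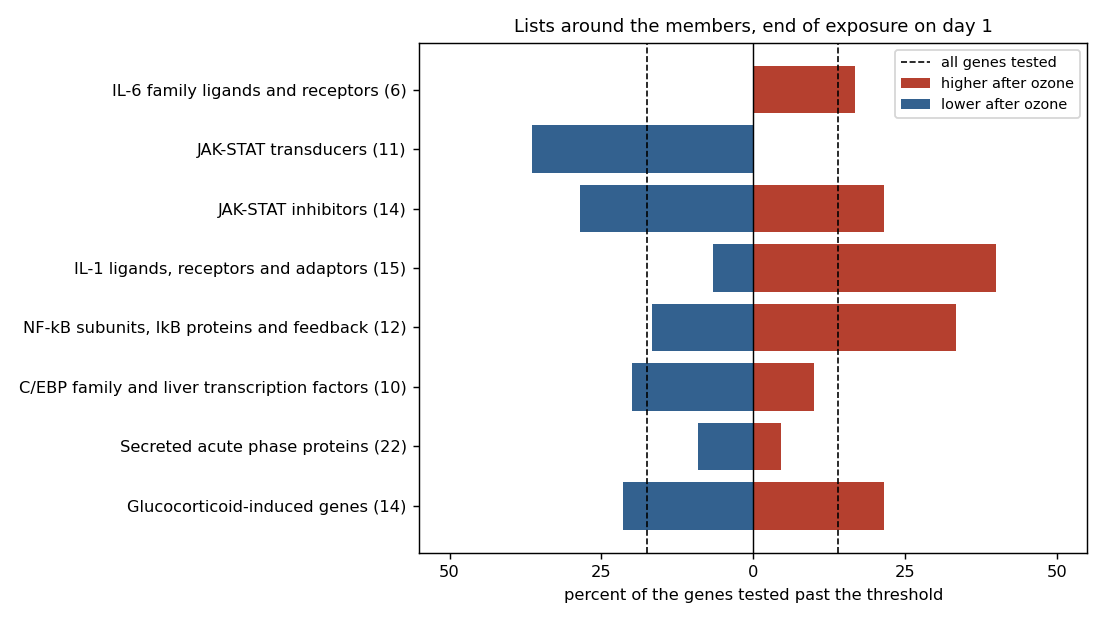
Percent of the tested genes of each list that passed the threshold on day 1, higher after ozone to the right (red) and lower to the left (blue); the number of tested genes stands in parentheses, and dashed lines mark 13.9% higher and 17.5% lower over all genes. Interleukin-1 genes reach 6 higher of 15, JAK-STAT transducers 4 lower of 11, and secreted acute phase proteins 1 higher and 2 lower of 22.

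The arrays carried strong hepatocyte signal, with Alb at 12830.3 to 13347 units. The 9 tested Kupffer cell and macrophage markers gave 0 higher and 2 lower on day 1 (median -0.14) and 0 higher and 1 lower on day 2 (-0.11). At 18 h 0 passed in limma (4 at an unadjusted p under 0.05), with a median of -0.24. Their summed level was 5448 to 6097 in air and 4100.3 to 5308 after ozone, which did not overlap. Such a sum follows the brightest markers, and how often groups fail to overlap over all genes was not counted. Summed levels overlapped on day 1 (5783 to 7058 and 4566 to 7297) and on day 2 (4285 to 7143 and 3679 to 5231). Of the defining markers, Clec4f read 743 to 1857 units and Cd68 217 to 416. Of 4 tested neutrophil and monocyte markers 0 passed at any time in limma (1 at an unadjusted p under 0.05 on day 1, 0 later), with summed levels of 628 to 726 in air and 642 to 718 after ozone on day 1, S100a9 at 141 to 344 units and S100a8, too dim to be tested, at 99.3 to 229. Of 9 endothelial markers 3 fell on day 1 and 1 rose at 18 h, with Pecam1 at 175 to 257. On day 1, 1 of 9 lymphocyte, 1 of 10 stellate cell and 1 of 6 cholangiocyte markers fell, 1 of 9 hepatocyte markers rose and 1 fell, and no erythroid marker passed. Over all genes 13.9% rose and 17.5% fell on day 1, 0.496% and 0.257% on day 2, and 1% and 0.367% at 18 h. In lists this short most of the day 1 counts lie near those shares. What part these cell types had in the members' differences was not tested.

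The genes whose levels followed a member most closely over the 32 arrays were named from Pearson's r, as a description; the points share the groups and the arrays. For Stat3 they were Irak3, Stimate and Serpina3n (each r = 0.87). For Socs3 they were Stimate (0.84), the chemokine Cxcl1 (0.84) and the growth arrest gene Gadd45a (0.81). For Il6st they were Inpp5b (0.89), Irf2 (0.87) and Fgfr2 (0.86), for Il6r Zfp354a (0.84), Gpr146 (0.83) and Baiap2l1 (0.83), for Cebpb Tcim (0.88), the kinase Pim3 (0.80) and Nfkbiz (0.75), and for Nfkbia Tob2 (0.79), Pim3 (0.77) and Errfi1 (0.77). For Cebpd they were Tifa (0.94), the kinase Sgk1 (0.92) and Enc1 (0.91), but these rest on 1 array, since without 18 h air replicate 2 they were 0.68, 0.53 and 0.55. Without that array the values for the other members lay between 0.68 and 0.89.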

How the data were processed

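Total RNA of rat liver was hybridised to Affymetrix HT-Rat-230 PM arrays. The authors deposited linear probe-set intensities (30.5 to 15558). The submitters' processing notes name PLIER and Affymetrix Expression Console, with versions, background correction and scaling not given in the sources used here. Groups and replicate numbers came from the sample titles. Of 31139 probe sets, 97 controls, 11407 without a gene and 573 with several were left out, which left 19062 probe sets of 13437 genes; 18983 matched the RefSeq gene table. Probe sets with a mean log2(intensity + 16) below the 25th percentile of these (7.202) were not tested, and the brightest one remaining stood for each of 10886 genes. Limma 3.58.1 in R 4.3.3 (lmFit, eBayes with an intensity trend) fitted 6 group means over all 32 arrays with no block and no further scaling; p-values are two-sided. Tables were made with pandas 2.3.3 and numpy 2.4.6 in Python 3.11.15, and figures with matplotlib 3.10.9.

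The procedure was tested on simulated data of 10886 genes, 100 of them shifted 0.5 and another 100 shifted 1 (log2). It recovered 98% and 98% on day 1, 98% and 97% on day 2 and 98% and 96% at 18 h. These rates describe the simulated data only. How often such shifts would be called on the real arrays was not tested. Among the members, Stat3 passed on day 1 at 1.12 ± 0.13. At 18 h, Cebpb at -0.70 ± 0.19 (limma adjusted p = 0.054) and Cebpd at -0.52 ± 0.26 (0.41) did not pass. With group means taken out, air and ozone arrays of the same replicate number correlated between -0.392 and 0.03 on day 1 and between -0.588 and -0.026 on day 2. At 18 h they correlated between -0.323 and 0.262, with 2 of 5 pairs over 0.1. Over all groups 24 of 76 same-number pairs were over 0.1, the highest at 0.422. So few pairs cannot settle whether the numbers pair the samples, and no pairing was used. Arrays correlated at 0.965 to 0.997 with no identical pair. The number of arrays limits the precision.

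The 8 members, the lists, the marker lists and the motifs were chosen with earlier results of these data known. Named beside the members are, from each list and ozone contrast, the 2 genes with the smallest p past the threshold, and for each member the 3 most correlated genes (LOC and RGD names and members passed over). The values of Ahsg, Myd88, Map3k7, Il1rn and Irak2, and those of single other genes in the closing section, were chosen after they were seen. A total of 49 settings was tried, 32 of which left out 1 array.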

Additional observations from a re-analysis of the deposited data

Results flagged for a closer look

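In 48 groups of 5 or 6 arrays (8 genes in 6 groups) 4 had an array that stood apart by Dixon's criterion, which chance flags in about 1 in 20 groups. At 18 h in air, replicate 2 was the highest for Socs3 (log2 level 7.77, 203 units) and for Cebpd (9.99, 998 units). At 18 h after ozone, replicate 2 was the highest for Cebpd (8.15, 269 units). On day 2 after ozone, replicate 2 was the lowest for Il1r1 (7.19, 130.3 units), in a group of narrow range.

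The ozone effect differed between harvest times by limma's test of the difference for Stat3, by -0.92 from day 1 to day 2 and by -1.55 from day 1 to 18 h. From day 1 to 18 h it also differed for Socs3 (-0.36), Cebpb (-0.69) and Il6st (0.41). Of the 32 fits that left out 1 array, the Cebpb call was lost in 22, that of Socs3 in 2 and that of Il6st in 1.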

How the results depend on the processing

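Of 2736 alternative values of single members in 56 results, 2660 kept their side of the threshold, 37 lost it and 39 gained it, and 0 called values changed sign; 59 values in 18 results changed sign where neither fit passed. The day 1 count of members was 3, and 2 to 4 with 1 array left out. On day 2 it was 0, and 1 with array weights or without the 4 named or all 7 arrays nearer another group (0 to 1 with 1 array left out). At 18 h it was 0, 1 after quantile normalization or with the 50th percentile as filter, and 2 with array weights or without the 4 or 7 arrays (0 to 2 with 1 left out). For the change from day 1 to day 2 it was 1 (1 to 2 with 1 left out), from day 2 to 18 h 0 (2 with array weights or without the 4 or 7 arrays), and from day 1 to 18 h 4 (2 without the arrays of low nonspecific binding, 2 to 5 with 1 left out). With the replicate number as a block the counts of all genes were 3233 on day 1, 6 on day 2 and 97 at 18 h, and no member's call changed. Whether the numbers pair the samples is not known. Counts of all genes on day 2 (82) were unstable: 1 in a fit of its groups alone, 18 without the arrays of low nonspecific binding, 22 with no filter, 144 after quantile normalization, 161 with the 50th percentile, 1591 without the 4 arrays, 1014 without the 7, 2038 with weights, and 1 to 1003 with 1 array left out. At 18 h (149) they were 1, 75 with arrays centred on their median, 82 without the array of highest actin ratio, 97 with the block, 581 without the 4 arrays, 596 without the 7 and 663 with weights (35 to 435). For the other contrasts they ran from 258 to 1011 (day 1 to day 2, 603), 0 to 1160 (day 2 to 18 h, 1), 0 to 55 (air, day 1 to day 2, 1) and 0 to 702 (air, day 2 to 18 h, 14). The cause of these changes was not tested. Leaving out the 7 arrays, and a percentile over all probe sets that are not controls, which keeps Il1r1, were added after seeing the data. Socs3, Il1r1 and Cebpd lie near background, which limits what their folds show.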

Other observations

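The air array of replicate 2 at 18 h was singled out after its values were seen. Among the 5 air arrays of that time it was the highest for 5 of the 8 signalling genes (Stat3, Socs3, Cebpb, Cebpd and Il1r1) and the lowest for 1, Nfkbia, at 664 units. Cebpd stood farthest out, 2.38 above the mean of the other 4 on the log2 scale, against 0.83 for Stat3, 0.67 for Cebpb and 0.62 for Socs3. It was also the highest for 17 of 22 secreted acute phase proteins and the lowest for 0 of them, whereas over all 10886 genes tested it was the highest for 10.7% and the lowest for 27.2%. Some of the 17 stood barely above the mean of the other 4 on the log2 scale: Itih3 by 0.01, Alb by 0.02, C3 by 0.03 and Hp by 0.05. The level of A2m on this array, alpha-2-macroglobulin, the classical rat acute phase protein, was 535 units against 208 to 246 on the other 4. Lcn2, lipocalin 2, read 392 against 166 to 181, Lbp, which binds bacterial lipopolysaccharide, 1077 against 577 to 861, and Serpina3n 6342 against 3883 to 4919.6. Of 12 genes of NF-kB and its inhibitors it was the highest for 7, with Nfkbiz at 1264 against 362 to 439 and Bcl3 at 923 against 255 to 315. Among 14 JAK-STAT inhibitors it was the highest for 3 and the lowest for 5. Among 14 glucocorticoid-induced genes it was the highest for 5 and the lowest for 4, with Sgk1 at 1915 against 243 to 307 and Tsc22d3 at 891 against 1207 to 1494. It is 1 array of the air group, so these values carry no test.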
